A study of Rattus norvegicus with 20 samples.

Results

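The 7 genes described here serve the insulin receptor and the uptake of glucose into muscle: the receptor Insr, its substrate Irs1, its inhibitory adaptor Grb14, the glucose carriers Slc2a4 and Slc2a1, the vesicle aminopeptidase Lnpep and hexokinase Hk2. Every probe set that the platform annotation pairs with 1 of these symbols and no other was taken, which gave 10 probe sets among the 7018 that have a single symbol and the 8799 on the array. Slc2a4, Slc2a1 and Hk2 had 2 probe sets each and the other genes 1 each. RNA came from rear-leg skeletal muscle of rats in 4 groups of 5 arrays: diabetic rats given vanadyl sulfate, untreated diabetic rats, normal rats given vanadyl sulfate, and untreated normal rats. Vanadyl sulfate is a vanadium salt with insulin-like actions. Strain, age, sex, the way diabetes was produced, the dose and length of treatment, and which leg muscle was taken were not stated in the labels.

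In muscle, insulin binds its receptor, a tyrosine kinase that phosphorylates docking proteins such as Irs1. The signal passes through phosphatidylinositol 3-kinase and Akt to vesicles that store Slc2a4, also called GLUT4, and these vesicles fuse with the surface membrane. Lnpep, the insulin-regulated aminopeptidase, resides in the same vesicles and moves with them. Slc2a1, or GLUT1, carries glucose without insulin and is scarce in adult muscle fibres. Once inside the fibre, glucose is trapped by hexokinase 2, whose gene is itself induced by insulin.

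The values are MAS5 signals on a linear scale, 1 per probe set and array, and the tests used log2(signal + 16). Nothing in the labels says that replicates came from separate animals, so p-values measure only the spread between these arrays. The median signal of an array lay between 377 and 648. Muscle markers were at the top of the arrays: creatine kinase Ckm, fast troponin Tnnc2 and skeletal actin Acta1 had median ranks at the 100.0, 100.0 and 99.9 percentile. The 3' over 5' signal ratio is a measure of RNA integrity. For Gapdh its log2 value was 3.94 in treated diabetic replicate 1, 2.90 in normal replicate 1 and 2.91 in normal replicate 3. It was at most 1.31 in the others. For beta-actin the median log2 ratio was 2.09 in treated diabetic, 1.97 in diabetic, 0.75 in treated normal and 0.63 in normal arrays. Diabetes and RNA integrity therefore cannot be fully told apart in these arrays. Diabetic replicates 1 and 3 stood apart in immune cell markers, with values given after the genes. In bulk muscle, fewer cells of a type and less RNA per cell cannot be told apart.

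In untreated diabetic muscle, 4 of the 7 genes fell against normal muscle. They were the carrier Slc2a4, by its brighter probe set alone, the substrate Irs1, the adaptor Grb14 and the vesicle protein Lnpep. Signals were between 2.24-fold and 2.60-fold lower for Slc2a4 D28561_s_at, Grb14 and Irs1. For these probe sets and that of Lnpep the diabetic and the normal arrays did not overlap. For the other Slc2a4 probe set, rc_AA799760_s_at, they overlapped (log2 difference -0.42, limma adjusted p = 0.533). Lnpep was at or below its array's 40th percentile in 4 of 5 diabetic arrays and was tested because it exceeded that limit in the other groups. The size of its fall and its call are therefore uncertain. Its call was lost in 7 of 8 other settings and in 15 of 20 fits with 1 array left out. The calls of Irs1, Slc2a4 and Grb14 were lost in 5, 4 and 2 of those settings and in 12, 13 and 3 of those fits. With the 3'/5' ratios as covariates, or without diabetic replicates 1 and 3, 0 of the 4 passed. Over all probe sets tested, 1.83% passed limma's adjusted threshold of 0.05 in this comparison, 0.564% in the downward direction, 16.7% had an unadjusted p under 0.05, and 5.09% had groups that did not overlap, 1.76% with the diabetic arrays lower. Of the 9 tested member probe sets, 4 passed, all downward, 6 had an unadjusted p under 0.05, and the median log2 difference was -0.84 against -0.06 over all tested probe sets. The genes were chosen with these results known, so the count describes them and is no independent support. The other Slc2a4 probe set, the tested Slc2a1 probe set, Insr and both Hk2 probe sets did not pass.

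With vanadyl sulfate, no member passed in diabetic muscle (0 of 9 by limma, where 0.498% of all probe sets did), and 5 of the 9 had an unadjusted p under 0.05, against 16.3% of all probe sets. The 5 were both Slc2a4 probe sets, Lnpep, Grb14 and 1 of the Hk2 probe sets. All 5 were higher in treated diabetic muscle, against 8.78% of all probe sets in that direction. Slc2a4 supplied 2 of the 5. Lnpep exceeded its array's 40th percentile in 1 of 5 untreated and 5 of 5 treated diabetic arrays. It was thus tested through groups where it was brighter, and its place in this count is no support. Lnpep is also 1 of the 4 counted below for unequal treatment differences. In normal muscle 0 of 9 passed by limma, with 0.0664% of all, and 2 had an unadjusted p under 0.05, Slc2a1 and Insr, against 9.23% of all. Between treated diabetic and treated normal muscle 0 of 9 passed, as did 0 of all 6027 probe sets (0.0%; 109 without treated diabetic replicate 2, and 16 with the replicate number as a block), and 2 of 9 had an unadjusted p under 0.05, against 17.9% of all. Between treated diabetic and untreated normal muscle 0 of 9 and 0 of 6027 (0.0%) passed, or 1 member, Slc2a1, and 359 probe sets once the 3 arrays with Gapdh log2 ratios over 2 were dropped; with all arrays, 3 of 9 had an unadjusted p under 0.05, against 12.8% of all. In the test of whether the treatment difference was unequal in diabetic and normal rats, 0 of 9 passed, with 0.166% of all, and 4 had an unadjusted p under 0.05, against 13.3% of all. The diabetic and treatment comparisons share the untreated diabetic arrays, so a low value there enters both.

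**Figure D1:**
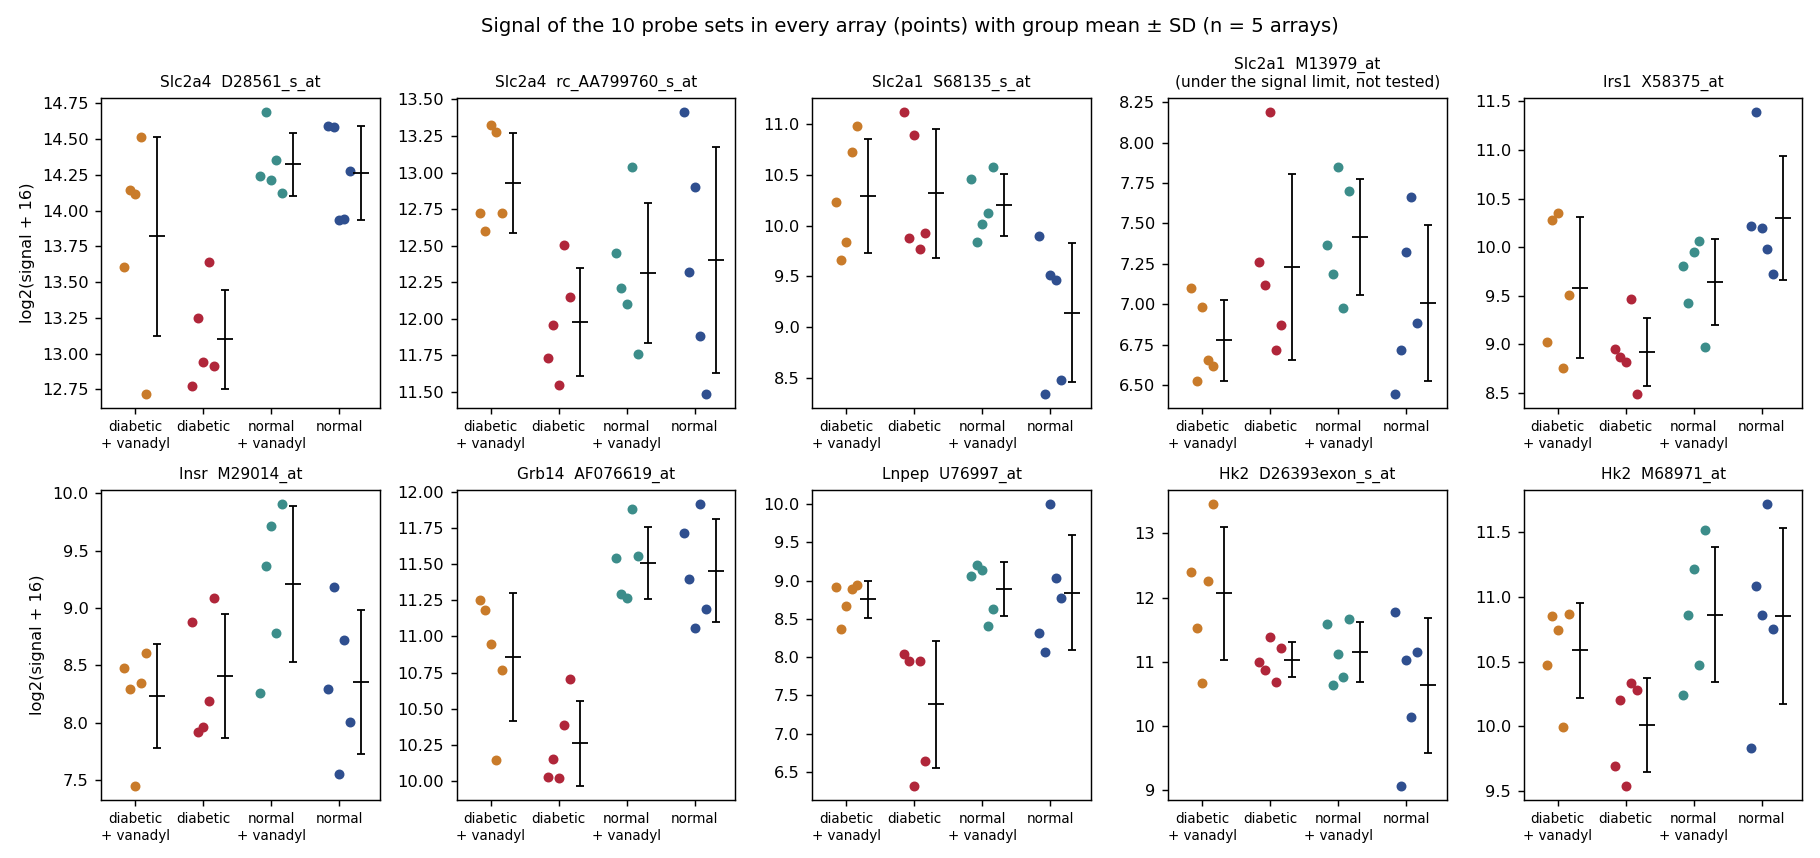
Log2(signal + 16) of each of the 10 probe sets (y axis, its own range in each panel) in the 4 groups (x axis), with a point for each array and a bar for the group mean ± SD (n = 5). The untreated diabetic arrays sit below all normal arrays for Slc2a4 D28561_s_at, Irs1, Grb14 and Lnpep, and overlap with them in the other panels.

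RefSeq promoter windows on build GRCr8, from 250 bases before to 50 after the gene start, matched 6 of the 7 genes; Slc2a4 had no entry. Those of the other 3 genes that fell are printed to let their letters be compared: Irs1 (chr9:91053910-91054209), Grb14 (chr3:70091872-70092171) and Lnpep (chr1:67027561-67027860). All 3 lie on the minus strand and are printed 5′ to 3′ on the strand of the gene. Capitals mark GC boxes (GGGCGG) and E-boxes (CANNTG) on either strand, which do not overlap each other here.
Irs1: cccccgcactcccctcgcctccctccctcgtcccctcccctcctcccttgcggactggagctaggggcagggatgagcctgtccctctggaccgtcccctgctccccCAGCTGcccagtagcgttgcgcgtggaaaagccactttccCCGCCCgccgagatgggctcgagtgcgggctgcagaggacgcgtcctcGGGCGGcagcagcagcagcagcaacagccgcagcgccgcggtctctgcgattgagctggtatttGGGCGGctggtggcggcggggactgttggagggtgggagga
Grb14: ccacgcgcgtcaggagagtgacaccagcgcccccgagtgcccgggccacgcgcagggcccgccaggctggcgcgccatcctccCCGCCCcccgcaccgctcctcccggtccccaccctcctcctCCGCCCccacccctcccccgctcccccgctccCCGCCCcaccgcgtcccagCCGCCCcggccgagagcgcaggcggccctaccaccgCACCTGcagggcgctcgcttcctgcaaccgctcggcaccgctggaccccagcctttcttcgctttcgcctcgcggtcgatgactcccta
Lnpep: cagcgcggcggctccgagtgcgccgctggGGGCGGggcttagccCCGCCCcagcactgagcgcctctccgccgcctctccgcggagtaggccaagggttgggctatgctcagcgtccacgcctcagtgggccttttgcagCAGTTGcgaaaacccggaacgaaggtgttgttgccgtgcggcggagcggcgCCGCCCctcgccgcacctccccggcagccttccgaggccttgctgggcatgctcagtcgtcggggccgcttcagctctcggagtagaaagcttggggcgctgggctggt

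The Irs1 window held 3 GC boxes and 1 E-box, the Grb14 window 4 and 1, and the Lnpep window 3 and 1. Of 33469 promoter windows of the same length, 33.1% held a GC box and 72.1% an E-box. Of the members that did not fall, the Slc2a1 window also held 3 GC boxes, and the Insr and Hk2 windows held 0; E-boxes numbered 0 in Slc2a1, 3 in Insr and 1 in Hk2. The G and C content was 70.3% for Irs1, 77.0% for Grb14 and 70.7% for Lnpep, against 71.3% for Insr, 68.3% for Slc2a1 and 51.0% for Hk2, so the ranges of the genes that fell and the others overlapped. A match of letters is a description of the sequence and not a site of binding.

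Insr, the receptor, was dim: probe set M29014_at exceeded the 40th percentile of its array in 14 of 20 arrays. Its signals in replicates 1 to 5 were 340, 298, 159, 309 and 375 in treated diabetic muscle, against 454, 226, 234, 276 and 530 in untreated diabetic muscle. They were 290, 643, 827, 425 and 945 in treated normal muscle, against 298, 565, 172, 405 and 241 in untreated normal muscle. All 4 groups overlapped except that treated normal replicates 2, 3 and 5 stood above every array of the other groups. The receptor's log2 difference between diabetic and normal muscle was 0.06 ± 0.36 (SE, n = 5 per group, limma adjusted p = 0.96), with a 95% interval of -0.70 to 0.81. Treated normal against normal muscle gave 0.86 ± 0.36 (adjusted p = 0.513), and treated diabetic against treated normal muscle gave -0.97 ± 0.36 (adjusted p = 0.188). By mean level the order was treated normal, diabetic, normal and treated diabetic, and the lower 3 differed by steps of 0.06 and 0.12 on the log2 scale, less than their SDs of 0.46 to 0.63.

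Irs1, the docking protein that the activated receptor phosphorylates, was measured by X58375_at. Its signals were 505, 1226, 1291, 416 and 714 in treated diabetic muscle, against 479, 452, 436, 692 and 345 in untreated diabetic muscle. They were 880, 670, 977, 1050.3 and 488 in treated normal muscle, against 1171, 2666, 1161, 993 and 831 in untreated normal muscle. All 5 diabetic arrays lay below all 5 normal arrays, and the highest array of the gene, normal replicate 2, stood well apart from the others of its group. Irs1 fell by 1.38 ± 0.35 on the log2 scale in diabetic muscle (adjusted p = 0.0483, 95% interval -2.11 to -0.65), or 2.60-fold. Without normal replicate 2 the difference was -1.11 and no longer passed (adjusted p = 0.113).

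The treatment differences of Irs1 pointed opposite ways. They were 0.66 ± 0.35 in diabetic muscle (adjusted p = 0.355) and -0.66 ± 0.35 in normal muscle (adjusted p = 0.571), and neither passed. The difference between them was 1.32 ± 0.50 (unadjusted p = 0.0147, adjusted p = 0.256). Treated diabetic and treated normal muscle were 0.06 apart in mean log2 signal (95% interval of the difference -0.79 to 0.67).

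Grb14 encodes an adaptor that binds the activated insulin receptor and blocks its kinase. Its signals from AF076619_at were 2423, 2313, 1957, 1118 and 1732 in treated diabetic muscle, against 1028, 1125, 1025.0, 1324 and 1658 in untreated diabetic muscle. They were 2960, 2491, 2445, 3752 and 2993 in treated normal muscle, against 3344, 2683, 2115, 3845 and 2322 in untreated normal muscle. Every diabetic array, treated or not, lay below every treated normal array, and the untreated diabetic arrays lay below every normal array as well. Of all probe sets, 3.22% had treated diabetic and treated normal groups that did not overlap, 2.01% with the diabetic arrays lower. Grb14 fell by 1.19 ± 0.25 in diabetic muscle (adjusted p = 0.0159, 95% interval -1.71 to -0.68), or 2.29-fold, the smallest adjusted p among the 9 member probe sets.

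Treated diabetic muscle held an intermediate level of Grb14. Its log2 difference was 0.60 ± 0.25 from untreated diabetic muscle (adjusted p = 0.245), -0.59 ± 0.25 from untreated normal muscle (adjusted p = 0.342) and -0.65 ± 0.25 from treated normal muscle (adjusted p = 0.192). None of these passed, and treated diabetic replicate 4, at 1118, was within the untreated diabetic range. In normal muscle the treatment difference was 0.05 ± 0.25 (adjusted p = 0.962, 95% interval -0.46 to 0.56).

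Slc2a4, the insulin-regulated carrier, was bright on the arrays, with median ranks at the 94.7 percentile for D28561_s_at and the 86.8 percentile for rc_AA799760_s_at. The first had signals of 12436, 18060.2, 17731, 23397 and 6730.1 in treated diabetic muscle, against 6972, 9705, 7834, 12734 and 7700 in untreated diabetic muscle. It had 19367, 26405, 18999, 20897 and 17843 in treated normal muscle, against 24701, 24581, 15609, 15683 and 19811 in untreated normal muscle. The highest untreated diabetic array was below the lowest normal array, while the treated diabetic arrays were spread over both ranges, from the lowest array of all, replicate 5, to replicate 4 among the highest. Slc2a4 fell by 1.16 ± 0.29 in diabetic muscle by this probe set (adjusted p = 0.045, 95% interval -1.76 to -0.56), or 2.24-fold.

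Treated diabetic muscle had 0.72 ± 0.29 more log2 signal of D28561_s_at than untreated diabetic muscle (adjusted p = 0.238). Without treated diabetic replicate 5 that difference was 0.99 (adjusted p = 0.0911), and the difference from untreated normal muscle was -0.17, against -0.45 with it (adjusted p = 0.9 and 0.507). Without treated diabetic replicate 4 the same 2 differences were 0.54 and -0.62 (adjusted p = 0.335 and 0.369). In normal rats the carrier's treatment difference was 0.06 ± 0.29 (adjusted p = 0.962, 95% interval -0.54 to 0.66). The test of unequal treatment differences gave 0.66 ± 0.41 (adjusted p = 0.5).

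The other Slc2a4 probe set gave a different order of groups. Its signals were 6732, 6201, 10256, 9907 and 6759 in treated diabetic muscle, against 3388, 3955, 2978, 5789 and 4516 in untreated diabetic muscle. They were 5589, 4730.3, 4379, 8392 and 3447 in treated normal muscle, against 10899, 5087, 7639, 3750.0 and 2855 in untreated normal muscle. Here every treated diabetic array exceeded every untreated one, and the untreated normal arrays held both the lowest and the highest value of the 20. Groups that did not overlap were found for 4.45% of all tested probe sets in that comparison, 2.37% with the treated arrays higher. For rc_AA799760_s_at the difference between diabetic and normal muscle was -0.42 ± 0.33 (adjusted p = 0.533), and it was 0.08 without the 3 arrays of high Gapdh ratio. Between treated and untreated diabetic muscle it was 0.95 ± 0.33 (unadjusted p = 0.00908, adjusted p = 0.182). The 2 probe sets had a Pearson r of 0.37 over the 20 arrays once group means were removed, a description that shares arrays and scaling. Untreated diabetic muscle had the lowest mean of the 4 groups by both.

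Lnpep, the aminopeptidase of the Slc2a4 vesicle, was dim in diabetic muscle, where U76997_at exceeded the 40th percentile of its array in 1 of 5 arrays, against 5 of 5 in treated diabetic, 5 of 5 in treated normal and 4 of 5 in normal muscle. Its signals were 468, 315, 392, 458 and 475 in treated diabetic muscle, against 248, 231, 64, 232 and 84.2 in untreated diabetic muscle. They were 517, 576, 548, 322 and 381 in treated normal muscle, against 304, 251, 1008, 510 and 421 in untreated normal muscle. All 5 untreated diabetic arrays lay below all 15 others, though the highest of them, at 248, was close to the lowest normal array, at 251. Lnpep fell by 1.46 ± 0.37 in diabetic muscle (adjusted p = 0.0483, 95% interval -2.23 to -0.68), a size that depends on the pseudocount because most diabetic arrays were so dim. With a pseudocount of 64 the difference was -1.21 (adjusted p = 0.0494), and with the replicate number as a block its adjusted p was 0.0712.

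In diabetic rats, the log2 difference of Lnpep between treated and untreated muscle was 1.37 ± 0.37 (unadjusted p = 0.0014), which did not pass over all probe sets (adjusted p = 0.104). It was 1.13 with a pseudocount of 64, the untreated arrays being the dim ones. The 2 groups did not overlap, as was found for 4.45% of all tested probe sets, 2.37% with the treated arrays higher. Treated diabetic muscle was 0.08 below untreated normal muscle on the log2 scale (95% interval of the difference -0.86 to 0.69) and 0.13 below treated normal muscle (-0.91 to 0.64). The treatment difference in normal rats was 0.05 ± 0.37, and the test of unequal treatment differences gave 1.32 ± 0.52 (unadjusted p = 0.0201, adjusted p = 0.282).

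Slc2a1, the insulin-independent carrier, had differences of the opposite sign. Its tested probe set S68135_s_at had signals of 1190, 796, 902, 1677 and 2010 in treated diabetic muscle, against 2209, 926, 1885, 858 and 956 in untreated diabetic muscle. They were 1389, 903, 1018, 1099 and 1509 in treated normal muscle, against 938, 309, 718, 692 and 343 in untreated normal muscle. Untreated normal muscle was the lowest of the 4 groups, and only its replicate 1 reached into the range of the others. Diabetic muscle was 1.17 ± 0.35 higher than normal muscle on the log2 scale (2.26-fold, unadjusted p = 0.00342, adjusted p = 0.0926), which did not pass. It passed in the fit without the 3 arrays of high Gapdh ratio (1.55, adjusted p = 0.0274) and without normal replicate 1 (1.36, adjusted p = 0.0417). The normal arrays left in the former fit had log2 3'/5' ratios of 0.025 to 0.12 for Gapdh and 0.58 to 0.63 for beta-actin. Every untreated diabetic array was higher, at 0.21 to 1.11 and 0.93 to 2.52.

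Slc2a1 was also 1.06 ± 0.35 higher in treated than in untreated normal muscle (2.08-fold, unadjusted p = 0.00718, adjusted p = 0.406). In diabetic muscle the treatment difference was -0.03 ± 0.35 (95% interval -0.77 to 0.71). The other Slc2a1 probe set, M13979_at, exceeded the 40th percentile in 1 of 20 arrays and was not tested. Its signals ran from 76.3 to 121 in treated diabetic, 89.4 to 276 in untreated diabetic, 110 to 214 in treated normal and 71.3 to 187 in untreated normal muscle, with all 4 ranges overlapping.

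Hk2, the insulin-induced hexokinase of muscle, was read by 2 probe sets that did not move together: their Pearson r was -0.35 over the 20 arrays with group means removed. D26393exon_s_at had signals of 5409, 2942, 1615, 4905 and 11236 in treated diabetic muscle, against 2037, 1853, 2672, 1636 and 2353 in untreated diabetic muscle. It had 3080.1, 1572, 2215, 1720 and 3228 in treated normal muscle, against 3488, 522, 2071, 1112 and 2267 in untreated normal muscle. Treated diabetic replicates 1, 4 and 5 exceeded every other array, and replicate 5, the highest for Hk2, was the lowest of all arrays for Slc2a4 D28561_s_at. The difference between treated and untreated diabetic muscle was 1.03 ± 0.47 (adjusted p = 0.28), 0.69 without that replicate. Between diabetic and normal muscle it was 0.40 ± 0.47 (adjusted p = 0.704).

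M68971_at had signals of 1404, 1834, 1699.9, 1006 and 1848 in treated diabetic muscle, against 815, 1161, 731, 1274 and 1231 in untreated diabetic muscle. It had 1196, 1839, 2353, 1405 and 2913 in treated normal muscle, against 896, 2154, 1843, 3342 and 1708 in untreated normal muscle. Of the normal arrays, replicate 1 alone fell into the untreated diabetic range. By this probe set Hk2 had a difference of -0.84 ± 0.32 between diabetic and normal muscle (unadjusted p = 0.0166, adjusted p = 0.179). It passed without the 3 arrays of high Gapdh ratio (-1.17, adjusted p = 0.0436) and without normal replicate 1 (-1.09, adjusted p = 0.0471). In the former fit, as for Slc2a1, every untreated diabetic array had higher 3'/5' ratios than the normal arrays left. Between treated and untreated diabetic muscle the difference was 0.57 ± 0.32 (adjusted p = 0.377). The sign of the Hk2 difference in diabetic muscle therefore depended on the probe set.

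**Figure D2:**
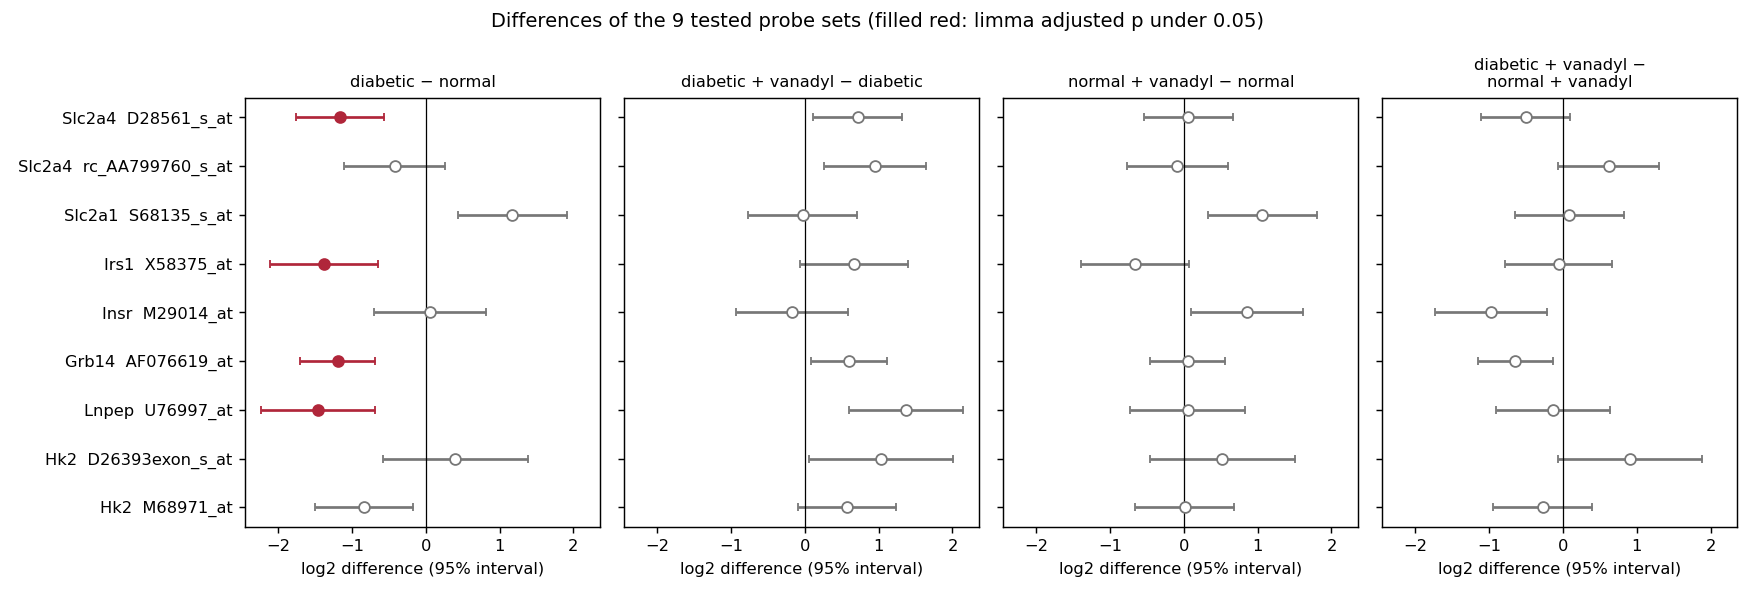
Log2 difference with its 95% interval (x axis) of the 9 tested probe sets (y axis) in 4 comparisons, red and filled where limma's adjusted p was under 0.05. Red points appear for diabetic against normal muscle alone, at -1.16 for Slc2a4, -1.38 for Irs1, -1.19 for Grb14 and -1.46 for Lnpep.

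The 4 genes that fell differed in how near they were to the threshold. With each of the 20 arrays left out in turn, Grb14 kept its call in 17 fits, Irs1 in 8, Slc2a4 in 7 and Lnpep in 5, and all differences stayed negative. In the fits where the call was lost the adjusted p ran from 0.0501 to 0.0611 for Grb14, 0.0565 to 0.135 for Irs1, 0.0509 to 0.143 for Slc2a4 and 0.0507 to 0.172 for Lnpep. Slc2a4 kept its call without normal replicate 3, diabetic replicate 4, treated normal replicate 5 or treated diabetic replicate 1, 2, 4 or 5, and lost it without any other array. Irs1 kept its call without normal replicate 1, diabetic replicate 4, treated normal replicate 5 or any 1 of the treated diabetic arrays, and Lnpep without normal replicate 1 or 2, diabetic replicate 2 or 4, or treated diabetic replicate 5. Grb14 lost its call without normal replicate 4 (adjusted p = 0.0501), diabetic replicate 1 (adjusted p = 0.0611) or diabetic replicate 3 (adjusted p = 0.0595). With diabetic replicates 1 and 3 both left out, 0 of the 4 passed: the differences were -1.04 for Grb14, -0.999 for Slc2a4, -1.36 for Irs1 and -1.32 for Lnpep, with adjusted p between 0.254 and 0.49. Those 2 arrays had the highest immune marker scores of their group, given after this comparison. They also had the highest log2 3'/5' ratios of their group, 0.90 and 1.11 for Gapdh and 2.30 and 2.52 for beta-actin. Immune marker level and RNA integrity cannot be told apart in them. With both 3'/5' ratios as covariates 0 of the 4 passed either, at -1.12, -1.26, -1.34 and -1.04 in the same order, with adjusted p between 0.0965 and 0.277.

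**Figure D3:**
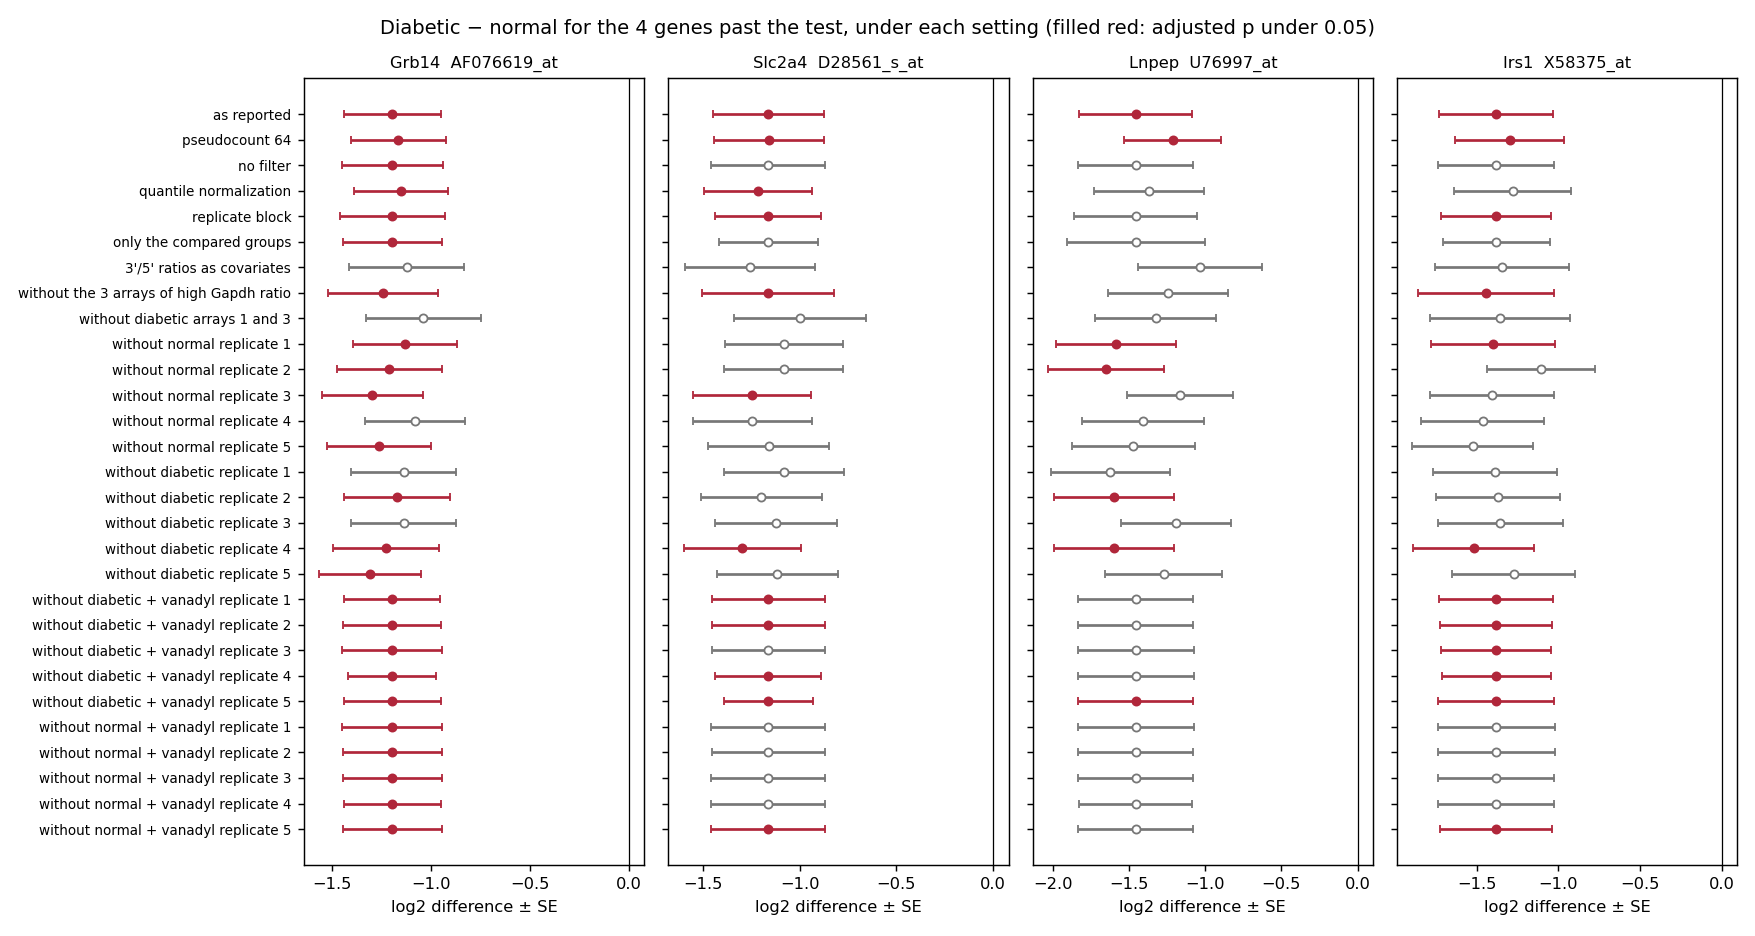
Log2 difference ± SE between diabetic and normal muscle (x axis) of Grb14, Slc2a4 D28561_s_at, Lnpep and Irs1 under every setting (y axis), red and filled where the adjusted p was under 0.05. All points lie below 0, between -1.65 and -0.999, and Grb14 is red in the largest number of fits.

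Markers of other cells moved between the same groups. Immune markers were higher in diabetic muscle: 6 of 12 tested members rose and 0 fell by limma, where 1.83% of all probe sets passed. The list score, a mean log2 difference from normal muscle, ran from -0.29 to 0.37 in treated diabetic and 0.52 to 2.17 in diabetic arrays. It ran from 0.07 to 0.41 in treated normal and -0.14 to 0.30 in normal arrays. The scores of diabetic replicates 1 and 3 were 2.17 and 2.15, and those of replicates 2, 4 and 5 were 0.73, 0.98 and 0.52. In treated against untreated diabetic muscle 3 of the 12 fell: the lysozyme Lyz2, the chemokine Ccl2 and the Fc receptor Fcgr2b. Of all probe sets 0.498% passed there. Of 6 tested markers of adipocytes, which also express Slc2a4, 3 rose in diabetic muscle and 0 fell, against the same 1.83%. Their scores were 0.11 to 0.87 in treated diabetic and 0.93 to 1.56 in diabetic arrays. In treated normal and normal arrays they were -0.12 to 0.25 and -0.37 to 0.37. Cidea, a lipid droplet protein, rose by 2.18 in diabetic muscle and fell by 2.29 in treated against untreated diabetic muscle, the 1 adipocyte marker of 6 past that test. Plin1, which coats the fat droplets of adipocytes, was below the limit for testing, with a median rank at the 15.1 percentile.

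Muscle fibre markers showed no call in diabetic against normal muscle (0 of 9 by limma, 0 at an unadjusted p under 0.05, median log2 difference -0.45). Of the 9 differences 0 were positive, and they ran from -0.56 to -0.19. In treated against untreated diabetic muscle 7 of the 9 member differences were positive. There 0 of 9 fibre markers passed and 4 had an unadjusted p under 0.05, against 16.3% of all probe sets. All 9 fibre markers were positive, with a median of 0.71. Their scores ran from -0.30 to 0.92 in treated diabetic, -0.67 to -0.22 in diabetic, -0.78 to -0.25 in treated normal and -0.64 to 1.33 in normal arrays. Slow fibre scores were -1.99 to 0.44 in treated diabetic, -0.50 to 0.91 in diabetic, -1.31 to 0.08 in treated normal and -0.23 to 0.25 in normal arrays. The slow tropomyosin Tpm3 fell in treated against untreated diabetic muscle (-1.36 ± 0.30, adjusted p = 0.0471), the only 1 of 8 slow fibre markers past that test. Of the 8, 6 had an unadjusted p under 0.05, against 16.3% of all probe sets, and the median was -1.53. Endothelial, nerve, smooth muscle and blood cell lists had, by limma, 1, 0, 0 and 0 members past the test in diabetic against normal muscle. Of all probe sets 1.83% passed it. The 1 was Esm1, a proteoglycan of endothelium, which rose by 1.96 there and fell by 2.08 in treated against untreated diabetic muscle. Counts at an unadjusted p under 0.05 in diabetic against normal muscle were 1, 1, 1 and 0, against 16.7% of all probe sets. Esm1 was not typical of its list: 2 of 5 endothelial markers were positive in diabetic against normal muscle (median -0.05) and 3 of 5 in treated against untreated diabetic muscle (median 0.15). The part of these cell types in the differences of the 7 genes was not tested.

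Other genes of the pathway were taken from a list of 112, of which 79 had a probe set of their own and 72 were tested. None passed limma's test in any of the 6 comparisons. In diabetic against normal muscle 0 of 72 passed, 9 had an unadjusted p under 0.05, against 16.7% of all probe sets, and 25 had positive differences. Their median log2 difference there was -0.24, against -0.04 over all tested genes. In treated against untreated diabetic muscle 0 of 72 passed and 6 had an unadjusted p under 0.05, against 16.3% of all probe sets. The median was 0.10, equal to that over all genes. Counts at an unadjusted p under 0.05 in the other comparisons are given with the share of all probe sets. They were 7 for treated against untreated normal (9.23%) and 14 for treated diabetic against treated normal muscle (17.9%). For treated diabetic against untreated normal muscle the count was 6 (12.8%), and for the unequal treatment differences 5 (13.3%).

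Among the proximal adaptors and kinases (16 tested), Irs2, the other main receptor substrate of muscle, had a difference of -0.97 ± 0.46 in diabetic muscle (adjusted p = 0.298) and of 0.70 ± 0.46 with treatment in diabetic rats (adjusted p = 0.466). Grb10, an adaptor of the same family as Grb14, had a difference of -0.27 ± 0.33 in diabetic muscle (adjusted p = 0.725). The smallest p of the whole list in diabetic against normal muscle was that of Eif4ebp1, a translation repressor released by insulin signalling (1.23 ± 0.35, adjusted p = 0.0804), and its treatment difference in diabetic rats was -1.19 ± 0.35 (adjusted p = 0.122). Among the 13 inhibitors and phosphatases the median was -0.67 in diabetic muscle, with 3 positive. Ptpn1, the tyrosine phosphatase PTP1B that acts on the insulin receptor, had a difference of 0.37 ± 0.24 (adjusted p = 0.452), and Socs2, a suppressor of cytokine signalling, of -2.13 ± 0.86 (adjusted p = 0.205).

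The 26 vesicle traffic genes had a median of -0.24 in diabetic muscle. The transferrin receptor Tfrc, which recycles through endosomes together with part of the Slc2a4 pool, had the largest difference (-2.91 ± 0.88, adjusted p = 0.093). The fusion proteins Vamp2 and Stx4 had differences of 0.31 ± 0.32 (adjusted p = 0.647) and -0.24 ± 0.51 (adjusted p = 0.86). Among the 6 other carriers and hexokinases, Slc2a5, a fructose carrier, had -0.96 ± 0.42 (adjusted p = 0.25), Slc2a3 -0.30 ± 0.22 (adjusted p = 0.507) and Hk1, the hexokinase of most tissues, 0.22 ± 0.24 (adjusted p = 0.687). The 11 transcription factors reported at the Slc2a4 or Hk2 promoter had a median of -0.13, with 3 positive.

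**Figure D4:**
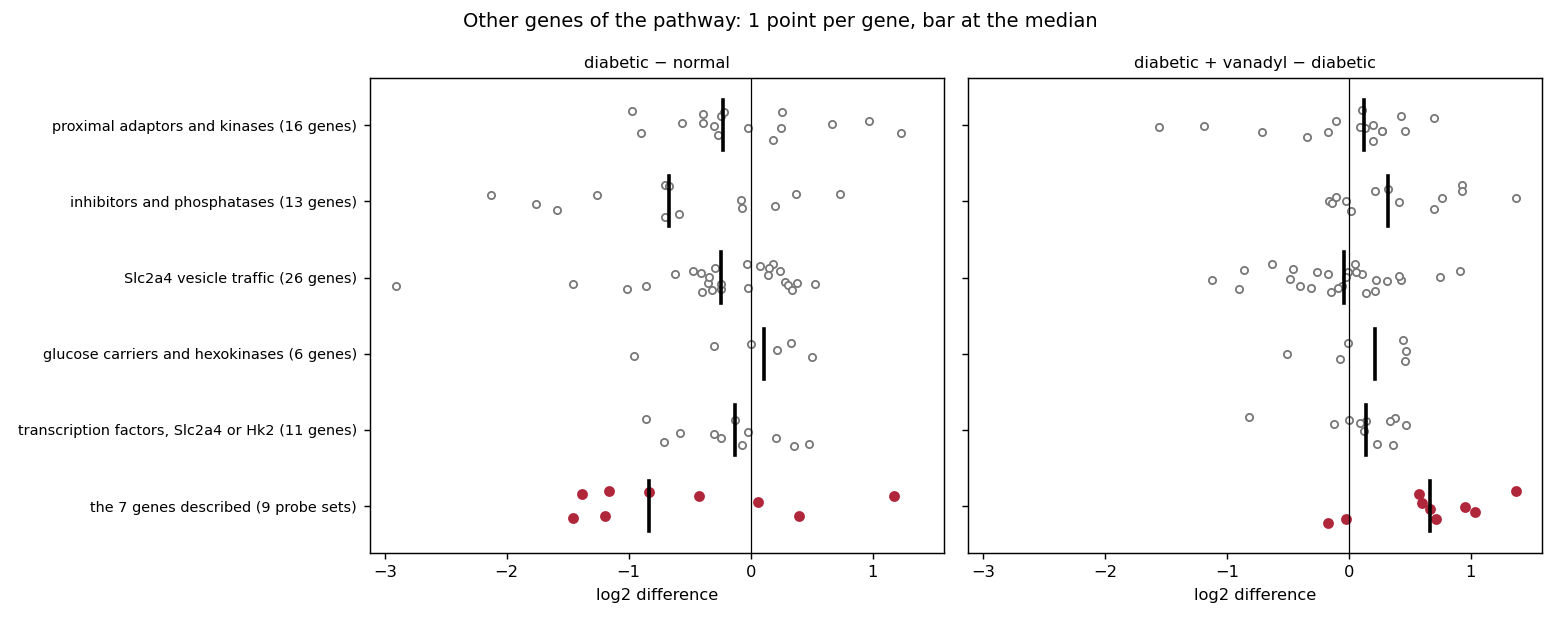
Log2 differences (x axis) of the 72 other pathway genes by list (grey, 1 point per gene) and of the 9 member probe sets (red, bottom row), for diabetic against normal and treated against untreated diabetic muscle, with a bar at each median. The member medians are -0.84 and 0.66, and the list medians lie between -0.67 and 0.11 in the left panel and between -0.04 and 0.32 in the right panel.

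The genes whose arrays varied most like each member within groups were listed by Pearson r over the 20 arrays with group means removed, among 3581 other genes. For Slc2a4 these were the mitochondrial aspartate aminotransferase Got2 (r = 0.87), the isocitrate dehydrogenase subunit Idh3g (0.86) and the bifunctional phosphofructokinase-2 Pfkfb1 (0.85). For Hk2 D26393exon_s_at they were the glucocorticoid receptor Nr3c1 (0.86), Sart1 (0.85) and Aatk (0.83), and for Slc2a1 the elongation factor Eef1a1 (0.84), the protease Furin (0.83) and the thrombin receptor F2r (0.82). The r values of the leading genes were lower for Irs1 (Snrpd3, 0.80), Grb14 (Ankrd24, 0.75), Insr (Pcyt1a, 0.73) and Lnpep (Avpr1b, 0.72). Points share arrays, scaling and RNA quality, and the highest of many r values is high by selection.

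Among the members themselves, the lead probe sets of the 4 genes that fell had r values between -0.35 and 0.24 within groups. These lead probe sets gave 0.24 for Slc2a4 with Irs1, -0.12 for Slc2a4 with Grb14, -0.14 for Slc2a4 with Lnpep, 0.21 for Irs1 with Grb14, -0.14 for Irs1 with Lnpep and -0.35 for Grb14 with Lnpep. The highest r between different genes was 0.65, between Slc2a1 and Hk2 D26393exon_s_at, and the lowest was -0.64, between Irs1 and that Hk2 probe set.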

How the data were processed

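Rear-leg muscle RNA of 20 samples, 5 in each of 4 groups, was hybridised to 1-colour arrays. Per the labels' protocols, poly(A) RNA was isolated from total RNA and turned into biotin-labelled cRNA. The authors deposited a linear MAS5 signal intensity for every probe set (the tool is named, without a version, in the submitters' processing notes). The arrays had nearly equal trimmed means (2503 to 2507 after trimming 2%), so no further normalization was applied. No detection calls were used.

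Control probe sets (59) were left out, and the other probe sets were tested when above their array's 40th percentile in at least 5 of 20 arrays, which left 6027. Values were log2(signal + 16). Group means were fitted with limma 3.58.1 (R 4.3.3) to all 20 arrays, with 6 two-sided comparisons and Benjamini-Hochberg adjustment over the 6027 (threshold 0.05); all adjusted p-values come from limma. Genes of a list were read from their brightest probe set on average. Symbols came from the platform annotation and 0 of 7018 changed when looked up by gene identifier in RefSeq. The number of arrays, 5 per group, limits the precision.

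The named genes are all members, the 3 genes most like each lead probe set, and pathway genes from fixed lists. The members and lists were chosen with earlier results of these data known; pathway genes short of the test are given as values and were chosen after these were seen. Alternatives were a larger pseudocount, no filter, quantile normalization, a replicate block, only the compared groups, the 3'/5' ratios as covariates, and fits without 1 or several arrays. The scripts were tested on simulated data.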

Additional observations from a re-analysis of the deposited data

Results flagged for a closer look

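In 40 sets of 5 arrays (10 probe sets in 4 groups), 1 array stood apart from its group by Dixon's ratio, the gap to the nearest array over the group's range. It was treated diabetic replicate 3 for Insr, at 159 against 298 to 375 in the other 4, with a ratio of 0.726 where the limit for 5 arrays is 0.71. Chance alone gives about 1 such array in 20 sets, so 1 in 40 is no excess. Without this array the difference of Insr between treated and untreated diabetic muscle was 0.02, against -0.17 with it.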

How the results depend on the processing

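The count of member probe sets past the test in diabetic against normal muscle, 4 as reported, was 1 with no filter, 2 under quantile normalization, 1 with only the compared groups, 0 with the 3'/5' ratios as covariates and 0 without diabetic replicates 1 and 3, and ran from 0 to 5 with 1 array left out (0 without normal replicate 4, diabetic replicate 1 or diabetic replicate 3, and 5 without normal replicate 1). The count over all probe sets was 110 as reported, and 62, 99, 71, 32 and 3 in the same settings, and 25 and 24 without diabetic replicate 1 or 3. It was 464 without the 3 arrays of high Gapdh ratio, where 5 members passed, and 247 without normal replicate 1. Without those 3 arrays, every untreated diabetic array had higher 3'/5' ratios than the normal arrays left. In treated diabetic against normal muscle the member count was 0 as reported and 1 once the 3 arrays with a high Gapdh ratio were left out; 359 of all probe sets then passed, against 0. The other 4 counts, all 0, stayed 0 under every setting run. Nothing in the labels says that a replicate number marks a shared animal or batch. Deviations from group means had a correlation over 0.1 in 11 of 30 same-numbered pairs (mean 0.077, -0.281 to 0.616). The same held for 33 of 120 pairs of unlike number (mean -0.018, -0.495 to 0.407). These values do not settle whether a number marks a pair, and the numbers were not used to pair arrays. With the replicate block 3 members passed in diabetic against normal muscle, and the block changed no other member call than that of Lnpep; over all probe sets it gave 106 calls against 110. Between treated diabetic and treated normal muscle, where 0 of all probe sets passed as reported, 16 passed with the block, 2 without the 3 arrays of high Gapdh ratio and 109 without treated diabetic replicate 2, with 0 members among them. The cause of these moves was not tested.

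Quantile normalization moved the median of all probe sets from 0.18 to 0.03 in treated against untreated normal muscle and from -0.15 to 0.04 in treated diabetic against treated normal muscle. Signs turned for differences that did not pass. Under it, treated against untreated normal muscle gave -0.095 for Grb14, -0.211 for Lnpep and -0.181 for Hk2 M68971_at; treated diabetic against treated normal muscle gave 0.144 for Irs1 and 0.105 for Lnpep; and treated against untreated diabetic muscle gave 0.017 for Slc2a1. With the 3'/5' covariates, treated against untreated normal muscle gave -0.059 and 0.012 for the Slc2a4 probe sets and -0.013 for Hk2 M68971_at; treated diabetic against treated normal muscle gave -0.35 for Slc2a1, 0.126 for Irs1 and 0.149 for Hk2 M68971_at; treated diabetic against normal muscle gave 0.169 for Lnpep and 0.136 for Hk2 M68971_at. Without the 3 arrays of high Gapdh ratio, diabetic against normal muscle gave 0.083 for Slc2a4 rc_AA799760_s_at and -0.227 for Insr; treated against untreated normal muscle gave 0.418 for Slc2a4 rc_AA799760_s_at and -0.323 for Hk2 M68971_at; treated diabetic against treated normal muscle gave 0.08 for Irs1; treated diabetic against normal muscle gave 0.092 for Lnpep; and the unequal treatment difference of Hk2 D26393exon_s_at was -0.084. Without diabetic replicates 1 and 3 the treatment difference of Slc2a1 in diabetic muscle was 0.432.

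With 1 array left out, signs turned within these ranges. In treated against untreated normal muscle they were -0.031 to 0.142 and -0.316 to 0.166 for the Slc2a4 probe sets, -0.048 to 0.166 for Grb14, -0.145 to 0.339 for Lnpep and -0.242 to 0.228 for Hk2 M68971_at. In treated diabetic against untreated diabetic muscle they were -0.2 to 0.174 for Slc2a1 and -0.295 to 0.023 for Insr. In treated diabetic against treated normal muscle they were -0.085 to 0.245 for Slc2a1 and -0.252 to 0.148 for Irs1. In treated diabetic against normal muscle they were -0.314 to 0.092 for Insr and -0.277 to 0.208 for Lnpep, and in diabetic against normal muscle -0.141 to 0.265 for Insr. Dim probe sets, such as those of Insr and Lnpep, limit what can be read from small differences.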
